A study of Mus musculus with 2 samples.

Results

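Integrins and laminins are the receptors and the matrix proteins by which cells hold on to a basement membrane. Their genes were chosen by symbol from the GENCODE M21 annotation: integrin alpha chains (Itga), integrin beta chains (Itgb) and laminin alpha, beta and gamma chains (Lama, Lamb, Lamc). The rule found 37 of the 21938 protein-coding genes, 26 integrin genes (18 alpha and 8 beta chains) and 11 laminin genes. Open chromatin was mapped by DNase-seq, which sequences the ends of fragments that DNase I cuts out of nuclei, in whole urinary bladder of female B6CASTF1/J mice aged 4 days. Such mice are the F1 cross of C57BL/6J with CAST/EiJ, and the deposited lists give 1 value per site over both parental genomes. There was 1 group with 2 biological replicates. The labels number the females separately but give them the same donor identifier, so part of the spread between replicates may be technical, and nothing was contrasted between groups.

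An integrin is a pair of an alpha and a beta chain in the cell membrane, bound outside to matrix and inside, through adaptor proteins, to the cytoskeleton. A laminin is a trimer of an alpha, a beta and a gamma chain that polymerizes into the sheet on which epithelial cells, muscle cells and endothelium rest. In the bladder, the urothelium is anchored to its basement membrane by a laminin with the Lama3 chain and by the integrin of Itga6 and Itgb4, each smooth muscle cell is wrapped in a laminin coat of its own, and integrins with the Itgb2 chain are known from leukocytes.

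Peak heights are a deposited signal whose scale is not given, and each equals a whole number of steps (0.00466 in replicate 1 and 0.00417 in replicate 2). Replicate 1 had 96518 peaks with a median height of 0.512 (110 steps), and replicate 2 had 122870 peaks with a median height of 0.321 (77 steps). The read depth is unknown here, and intervals on a height are 95% exact Poisson intervals on its number of steps, which cover counting error only. A promoter peak is a peak overlapping the 500 bp on either side of any annotated transcription start site (TSS), and a distal region is a merged region with a peak in both replicates, over 1000 bp from any TSS and at most 100 kb from the nearest protein-coding TSS. Markers of the labelled tissue were set beside the 62.3% of all protein-coding genes open in both replicates: 9 of 15 urothelial, 9 of 10 smooth muscle and 5 of 6 fibroblast markers had a peak at their promoter in each replicate, while Trp63, Upk1a and Upk3b had none in either. Leukocyte markers had one in 3 of 12 genes (Coro1a, Cd68 and Cd14), endothelial markers in 3 of 7 and megakaryocyte markers in 0 of 4.

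The sequences that carry most of the account are given first, as 150 bases around the centre of a region, read on the plus strand of the GRCm38 reference genome. They are the tallest distal regions of 3 epithelial chains (Itga6, Itgb6, Lamb3), 2 muscle chains (Itga8, Lama4) and 1 leukocyte chain (Itgb2), and the tallest promoter peak of the family, in Itga2b, which was added after its value was seen. Capitals mark matches, on either strand, to the motifs AP-1, TEAD, RUNX, KLF/SP and the wider CTCF consensus, all given below; matches to the short E-box and core ETS motifs, which most regions hold, are left in lower case.
Itga6: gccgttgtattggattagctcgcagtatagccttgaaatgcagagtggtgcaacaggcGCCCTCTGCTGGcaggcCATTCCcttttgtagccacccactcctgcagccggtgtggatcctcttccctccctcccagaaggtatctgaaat
Itgb6: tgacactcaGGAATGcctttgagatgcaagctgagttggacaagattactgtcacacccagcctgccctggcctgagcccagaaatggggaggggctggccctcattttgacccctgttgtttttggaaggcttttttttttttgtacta
Lamb3: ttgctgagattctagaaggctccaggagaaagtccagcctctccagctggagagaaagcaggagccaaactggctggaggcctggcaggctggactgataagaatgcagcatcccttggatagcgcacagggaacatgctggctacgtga
Itga8: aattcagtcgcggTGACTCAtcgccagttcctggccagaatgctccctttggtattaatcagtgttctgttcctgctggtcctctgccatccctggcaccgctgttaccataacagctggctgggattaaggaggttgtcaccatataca
Lama4: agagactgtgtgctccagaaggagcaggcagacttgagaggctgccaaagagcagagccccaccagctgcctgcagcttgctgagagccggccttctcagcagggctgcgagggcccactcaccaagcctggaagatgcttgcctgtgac
Itgb2: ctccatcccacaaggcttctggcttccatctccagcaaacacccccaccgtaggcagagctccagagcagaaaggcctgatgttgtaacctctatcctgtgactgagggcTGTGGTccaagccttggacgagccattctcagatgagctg
Itga2b: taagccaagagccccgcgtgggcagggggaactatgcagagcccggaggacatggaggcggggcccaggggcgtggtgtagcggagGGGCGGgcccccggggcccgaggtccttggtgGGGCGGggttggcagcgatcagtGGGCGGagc
The Itga6 window, chr2:71812841-71812990, lies in an intron of Itga6, and its capitals mark the wider CTCF consensus and then TEAD (GGAATG, here as its reverse complement). The Itgb6 window, chr2:60730235-60730384, lies between genes and holds TEAD. The Lamb3 window, chr1:193316101-193316250, is intronic, and the Lama4 window, chr10:38908411-38908560, lies between genes. The Itga8 window, chr2:12325566-12325715, lies between genes and holds AP-1 (TGANTCA). The Itgb2 window, chr10:77544990-77545139, is intronic and holds RUNX (TGTGGT). The Itga2b window, chr11:102467156-102467305, overlaps an exon of Itga2b, and its 3 capital runs are KLF/SP (GGGCGG).

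Most of these genes, like most protein-coding genes, had an open promoter, and the leukocyte integrins did not. Both replicates had a promoter peak at 26 of the 37 members (70.3%), against 13670 of the 21938 protein-coding genes (62.3%). The count was 8 of 9 epithelial chains, 4 of 6 muscle chains, 0 of 7 leukocyte chains and 14 of the 15 other members. By family, 10 of 11 laminin genes (90.9%) and 16 of 26 integrin genes (61.5%) were open in both, the integrin share being near that of all genes. In a whole tissue, fewer cells of a type and a less open promoter per cell cannot be told apart. Taken one at a time, replicate 1 had one at 29 members, against 65.4% of all genes, and replicate 2 at 28, against 64.7%, while 6 members had none in either, against 32.2%. In the shorter peak list of each replicate, both replicates had one at 22 members, against 55% of all genes. With the first TSS alone it was also 22 members, against 56.5%, and Itga2b, Itga6, Lama2 and Lamb3 were no longer counted. Members open in both replicates had a median height of 1.33 (replicate 1) and 1.04 (replicate 2), against 2.57 and 1.87 over all protein-coding genes open in both. Ranked among all genes with a promoter peak in each replicate, the median member stood at percentile 28.7 and 28.8. No test of the list was made, so these counts describe the members beside the background.

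**Figure D1:**
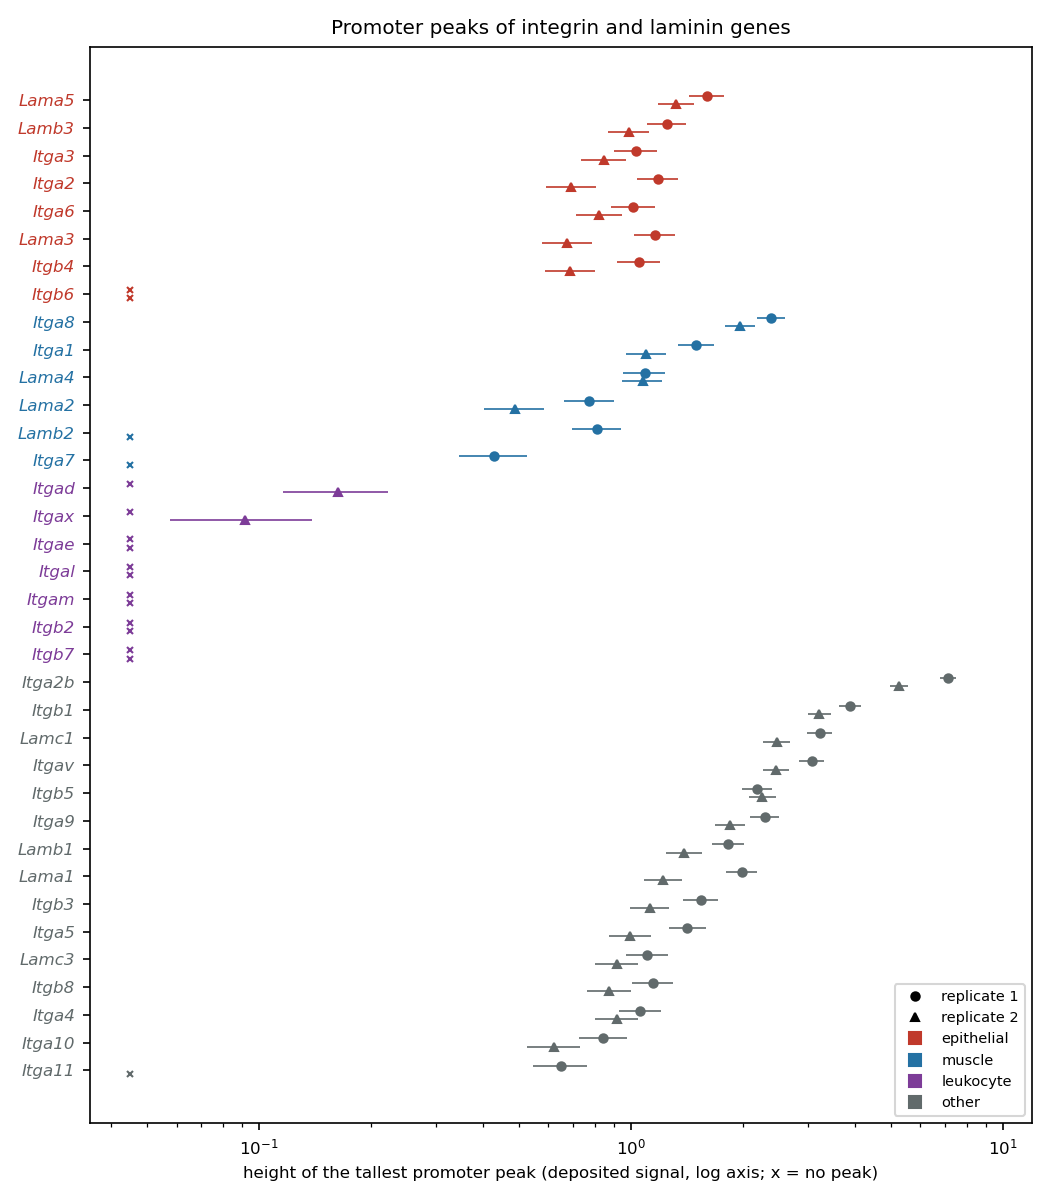
Height of the tallest promoter peak of 36 of the 37 genes on a log axis, as the deposited signal, with replicate 1 as circles and replicate 2 as triangles, lines for the 95% exact Poisson interval of the step count, and crosses for no peak. Genes are coloured by group, and the 7 leukocyte chains hold 2 low peaks, both in replicate 2, while Itga2b stands highest at 7.14 and 5.27.

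Among the laminin genes, Lamc1 had the tallest promoter peak in both replicates. This gene, the gamma chain of most laminins, had heights of 3.22 and 2.47 in replicates 1 and 2, and Lamb1, its usual beta partner, had 1.83 and 1.39. The alpha chains set the tissue identity of a trimer. Lama1, the alpha chain of the embryonic laminin, had 1.99 and 1.22, and Lama5, found beneath most epithelia, had 1.60 (interval 1.44 to 1.78) and 1.33 (1.18 to 1.48). Of the alpha chains of vessel and muscle coats, Lama4 had 1.09 (0.954 to 1.24) and 1.08 (0.948 to 1.22), below Lama5 in replicate 1 and with overlapping intervals in replicate 2, and Lama2, the chain lacking in a human congenital muscular dystrophy, had 0.773 and 0.488. Lamc3, a gamma chain of restricted expression, had 1.11 and 0.917. Lamb2, the beta chain of the neuromuscular synapse and of muscle coats, had a peak of 0.810 (0.694 to 0.940) in replicate 1 and none in replicate 2. With windows of 1000 bp Lamb2 was open in both, and in the shorter list of replicate 1 its tallest promoter peak was 0.293.

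Lama3 and Lamb3, an alpha and a beta chain of the anchoring laminin under the urothelium, were open in both replicates. Lama3 had 1.16 and 0.675, and Lamb3 had 1.25 and 0.988. Peaks stood at more than 1 start site in both genes. The tallest Lamb3 peak lay in the window of the TSS 65639 bp downstream of the first annotated one, and its centre was nearer to the TSS of the neighbouring gene G0s2 (126 bp in replicate 1) than to that of Lamb3 (247 bp). At the Lamb3 TSS 94294 bp downstream, the height was 0.773 and 0.717, and at the next 2 TSSs 0.657 and 0.542. The 4 TSSs at the very start of the annotated gene had no peak. In Lama3 the first TSS gave both values above, and the TSS 170380 bp downstream, where a shorter chain begins, had 0.466 in replicate 1 and no peak in replicate 2.

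**Figure D2:**
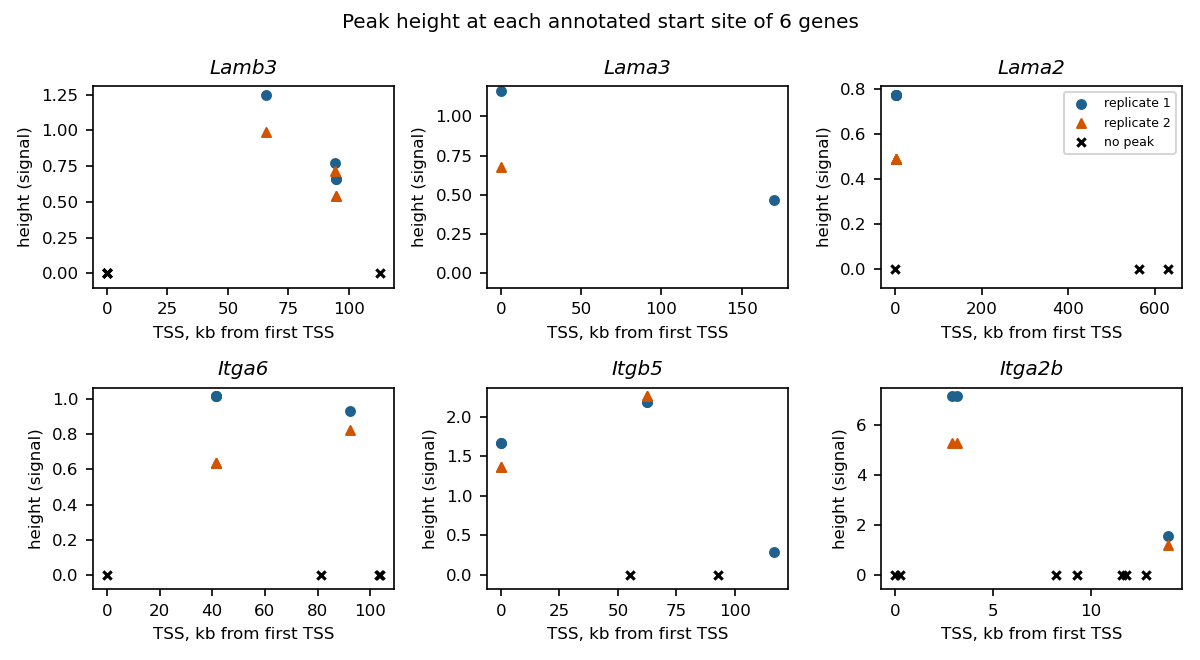
Peak height (deposited signal) at each annotated start site of Lamb3, Lama3, Lama2, Itga6, Itgb5 and Itga2b against its distance in kb from the first TSS, with replicate 1 as circles, replicate 2 as triangles and crosses for sites with no peak in either. In Itga2b the 2 sites near 3 kb share 1 peak of 7.14 and 5.27 while the first TSS has none.

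The epithelial integrin chains formed a tight band. Itga3, a laminin receptor of epithelia, had 1.03 and 0.846, and Itga6, the alpha chain of the hemidesmosome, had 1.02 and 0.821. Itgb4, its beta partner with a long cytoplasmic tail, had 1.05 and 0.688, and Itga2, a collagen receptor, had 1.18 and 0.692. The Poisson intervals of these 4 genes overlapped one another in each replicate (0.885 to 1.34 in replicate 1 and 0.587 to 0.971 in replicate 2, from the lowest to the highest bound), so they cannot be ordered. Itgb6, the beta chain of an epithelial integrin that activates TGF-beta, had no promoter peak in either replicate. In the shorter lists 5 of the 9 epithelial chains had a peak in both replicates, close to the 55% of all genes. Itga3 and Itgb4 were among those lacking one in at least 1 replicate. Itga6 was closed at its first TSS, and its peaks lay in the windows of the TSSs 41313 to 41362 bp downstream (1.02 and 0.638) and of a TSS 92465 bp downstream (0.931 and 0.821). The Itga6 heights and intervals compared above thus came from different start sites in replicates 1 and 2.

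The muscle chains ranged more widely. Itga8, a receptor for nephronectin known from smooth muscle and kidney mesenchyme, had 2.38 (2.18 to 2.60) and 1.97 (1.79 to 2.15). Itga1, a collagen receptor of smooth muscle, had 1.5 and 1.10 in a peak that also covered the TSS of Gm49395, and the gene was not counted when peaks nearer another gene were left out. Itga7, the laminin receptor of muscle, had a peak of 0.428 (0.345 to 0.525) in replicate 1 and none in replicate 2. With Lama2 and Lama4 above, the median of the 4 muscle chains open in both replicates was 1.29 and 1.09, against 1.11 and 0.757 for the 8 epithelial chains. The heights of these groups overlapped in both replicates.

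Among the widely used integrin chains, Itgb1, the beta partner of most alpha chains listed here, had 3.90 (3.64 to 4.17) and 3.21 (2.99 to 3.45). Itgav, the alpha chain of receptors for vitronectin and latent TGF-beta, had 3.07 and 2.46. Their intervals did not overlap in either replicate. Itga9 had 2.29 and 1.85, Itga5, the classical fibronectin receptor chain, 1.42 and 0.996, and Itga4, a chain shared by leukocytes and mesenchyme, 1.06 and 0.917. The partners of Itgav had 2.19 and 2.26 at Itgb5, 1.54 and 1.13 at Itgb3 and 1.15 and 0.876 at Itgb8. Itgb5 was the only member open in both replicates whose height was above its replicate 1 value in replicate 2, where the median log2 ratio (replicate 2 over replicate 1) was -0.39 over members and -0.41 over all genes. Its tallest peak lay in the window of the TSSs 62276 and 62282 bp downstream of the first, and the window of the first TSS had 1.67 and 1.37. Itga10, a cartilage collagen receptor, had 0.843 and 0.621, and Itga11, a collagen receptor of fibroblasts, had 0.647 in replicate 1 and no peak in replicate 2.

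Itga2b, the alpha chain of the platelet fibrinogen receptor, had the tallest promoter peak of the family, 7.14 (6.79 to 7.50) and 5.27 (4.98 to 5.56), at percentiles 97.5 and 97.5 of all promoters with a peak. The peak lay in the windows of TSSs 2923 and 3167 bp downstream of the gene's first TSS, where no peak was called, and the gene was not counted when only the first TSS was used. A lower peak of 1.54 and 1.18 stood in the window of a TSS 13932 bp downstream. The 4 megakaryocyte markers gave 0 promoter peaks in both replicates, with Gp9 at 0.267 in replicate 2 alone, and their part in the height at Itga2b was not tested. Its window above holds 74.0% G and C and 12 CpGs, and 2 of its 3 KLF/SP matches lay under a footprint in both replicates.

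The leukocyte chains were the closed end of the family. Itgb2, Itgal and Itgam, chains of the leukocyte adhesion receptors for ICAMs and complement fragments, and Itgae and Itgb7, chains of the receptor that holds T cells to E-cadherin, had no promoter peak in either replicate. Itgad had a peak of 0.163 (39 steps) and Itgax, the alpha chain typical of dendritic cells, 0.0917 (22 steps), both in replicate 2 alone. Both lay far below the median height of 0.321, and the Itgad peak overlapped the outer edge of its window, its centre 500 bp from the TSS. The lowest listed false discovery rate over all TSS windows of a gene was 4.29e-12 at Itgad and 5.82e-18 at Itgax. Both were lower than at Itgb4 in that replicate (0.000836), whose peak of 0.688 was taller. Such a rate need not lie at the peak given above. In the shorter list of replicate 2 the tallest promoter peak of Itgax was 0.204, above its 0.0917 in the longer list. Of the 6 members without a peak in either replicate, Itgb7 had a listed stretch of 14 bases at a rate of 0.0426 in replicate 2 and the other 5 had none; such a stretch was found at 227 of the 7057 genes without a peak (3.22%). The summed promoter height of the 7 chains was 0 in replicate 1 and 0.254 in replicate 2, while that of the 12 leukocyte markers was 4.80 and 3.49, of which Coro1a gave 3.05 and 2.14; Ptprc, Csf1r and Spi1 had no peak. Their part in the result was not tested.

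Read as complexes, several laminin trimers had every chain open. This follows from the calls of single genes above, and in a whole tissue the open chains of a complex may lie in different cells. Every chain was open in both replicates for laminin-511, laminin-411, laminin-211 and laminin-111, which all hold Lamb1 and Lamc1. Lamb2 was the missing chain of laminin-521 and laminin-221. The pairs of Itga6 with Itgb4, of Itga3, Itga6, Itga2, Itga1, Itga8, Itga9, Itga5, Itga4 and Itga10 with Itgb1, of Itga2b with Itgb3, and of Itgav with Itgb3, Itgb5 and Itgb8 were open on both sides. The pair of Itgav and Itgb6 lacked Itgb6, the pairs of Itga7 and Itga11 with Itgb1 lacked the alpha chain, and the pair of Itga4 and Itgb7 lacked Itgb7. The 4 Itgb2 pairs and the pair of Itgae and Itgb7 had 0 of 2 chains open.

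Members with an open promoter more often had a CpG-rich window than closed members. A promoter window was called CpG-rich at an observed over expected CpG ratio of 0.6 or more and a GC content of at least 50%. For a gene with several TSSs the window with the highest ratio was taken, which need not be the one with the peak. This held for 16 of 37 members and for 50.8% of all genes. All 16 CpG-rich members were open in both replicates, as were 94.4% of all CpG-rich genes, and 10 of the 21 members that were not CpG-rich were open, as were 29.1% of all such genes. The 7 leukocyte chains had a median ratio of 0.254 with 0 CpG-rich windows, against 0.605 in epithelial chains, 0.515 in muscle chains and 0.627 over all genes. Lamb3 (0.342), Lama2 (0.352) and Itga10 (0.286) had ratios within the range of the leukocyte chains (0.157 to 0.567) and were open. So did Lama4 (0.457), Itga2 (0.461), Itga4 (0.483), Lama3 (0.523) and Itgb8 (0.560), which were also open in both replicates. Itgad alone set the top of that range, and the next highest leukocyte chain was Itgb7 at 0.328. Of the open genes just named, only Itga10 had a ratio under that of Itgb7. Itgb1 (0.934) had the highest ratio of the members and Itgb6 had 0.383.

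**Figure D3:**
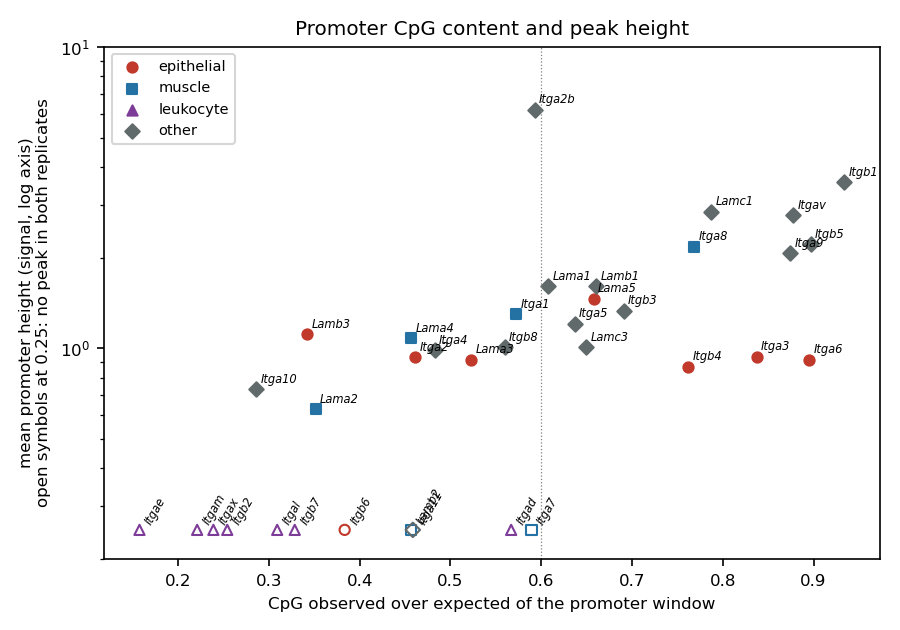
Mean promoter height of 2 replicates (deposited signal, log axis) for 36 of the 37 genes against the highest observed over expected CpG ratio among the promoter windows of the gene, with open symbols at 0.25 for genes without a peak in both replicates and a dotted line at 0.6. All plotted members right of the line are open, and the leukocyte chains sit left of it at 0.157 to 0.567.

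Distal regions were more numerous at these genes than at the average gene. The members held 85 of them, 2.30 per gene with a median of 2, and all protein-coding genes held 25831, 1.18 per gene with a median of 0. At least 1 was assigned to 27 of the 37 members (73.0%), against 43.6% of all genes, and at least 5 to 6 members, against 5.57% of all genes. Gene length was not matched in this comparison. Of the 85 regions, 61 (71.8%) lay within the gene they were assigned to, against 42.7% of all distal regions. Epithelial chains held 33 (3.67 per gene), muscle chains 9 (1.5), leukocyte chains 4 (0.571) and the other members 39 (2.60). Of the 33 epithelial regions, Lama3 held 9 and Itgb6 held 8. The median height, averaged over replicates, was 0.482 in epithelial, 0.481 in muscle, 0.512 in leukocyte and 0.706 in other regions, against 0.670 over all distal regions. With peaks at or above the median height of their list, epithelial chains kept 15 (1.67 per gene) and all members 52 (1.41 per gene), against 0.773 per gene over all genes.

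**Figure D4:**
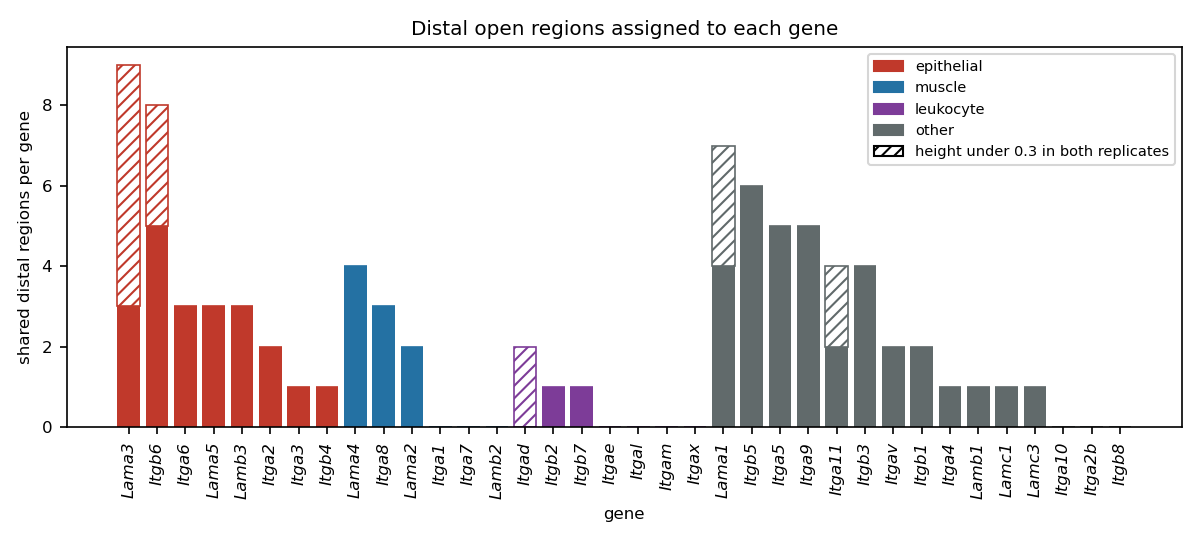
Number of shared distal regions assigned to 36 of the 37 genes, coloured by group, with hatched parts for regions under a height of 0.3 in both replicates. Lama3, Itgb6 and Lama1 lead with 9, 8 and 7 regions, of which 6, 3 and 3 are hatched.

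Lama3 led with 9 distal regions within its gene, but 6 of them were under 0.3 in both replicates, a limit chosen after the heights were seen. Low peaks at Lama3 numbered 19 over 12.6 kb in replicate 1 and 25 over 122 kb in replicate 2, down to 11 and 12 steps high. Its other 3 regions were taller, the tallest at 0.661 and 1.01. Lama1 had 7 regions, 3 of them low, and the replicates differed: 72 distal peak regions were assigned to it in replicate 2 and 10 in replicate 1, 62 and 6 of them low. Over all members, 16 of 85 regions (18.8%) were low, and 20.4% of all distal regions were.

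Itgb6, closed at its promoter, had 8 distal regions. In 6 of them the nearest TSS was 1540 to 5054 bp away and heights ran from 0.126 to 0.382 in replicate 1 and from 0.171 to 0.413 in replicate 2, all within the gene. The region between genes, 7667 bp from the nearest TSS, was the tallest at 1.26 and 0.792, and is the TEAD-bearing window printed above. Itgb5 had 6 regions, none under 0.3, of which 2 were tall: one 8704 bp from the nearest TSS (chr16:33820861-33821060) at 2.12 and 2.12, and one 4507 bp away (chr16:33950941-33951120) at 2.10 and 1.69. Itga5 had 5 regions at 0.615 to 0.908 and 0.559 to 0.659, and Itga9 had 5, all within the gene, at 0.452 to 1.10 and 0.534 to 0.796.

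The tallest distal region of each gene was compared next. After that of Itgb5, the tallest was within Itgb1 (2.13 and 1.46), then the printed Itga6 window (2.05 and 1.18), a region within Lamc3 (1.90 and 1.32) and an exonic region of Itgb7 (1.90 and 1.23). The Itgb7 region stood 7252 bp from the nearest TSS, in a gene with no promoter peak. The Lamb3 window had 1.66 and 0.938, and the Lama4 window, 57029 bp from the nearest TSS, had 1.26 and 1.28. Others among the 12 tallest, with 1 region taken per gene, were in Itgb3 (1.24 and 1.17), in Itgb4 (1.29 and 0.842, over an exon), upstream of Itgav (1.05 and 1.02) and, for Itga2, within its neighbour Itga1 (1.27 and 0.801). Among leukocyte chains, the printed Itgb2 intron had 0.996 and 0.730. Its gene, like Itgb7, had no promoter peak.

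Motif matches in the central 150 bp of the distal regions are a description of letters, not of binding. TEAD was found in 16 of the 85 member regions (18.8%), against 9.26% of all distal regions. By group it was in 4 of 33 epithelial regions (12.1%), 2 of 9 muscle, 0 of 4 leukocyte and 10 of 39 other regions (25.6%). AP-1 was found in 11 of the 85 member regions (12.9%), against 6.14% of all. RUNX was found in 11 (12.9%), against 11.2%, the GATA factor motif (AGATAA) in 5 (5.88%), against 3.88%, and KLF/SP in 7 (8.24%), against 11.3%. FOX (TGTTTAC) was in 0 of 85 member windows, against 1.54%, and PU.1 (GAGGAAGT) in 1, against 1.11%. The core ETS letters GGAA lie inside both TEAD and PU.1 and were in 88.2% of member regions and 82.3% of all, and the E-box CANNTG was in 51 of 85 and in 61.7% of all. The CArG box, known from smooth muscle promoters, was in 2 member regions (2.35%), against 0.767%, and the p53 family site in 6 (7.06%), against 5.28%. Within the central 100 bp, TEAD was matched in 9 of 85 (10.6%), against 6.13% of all distal regions, and AP-1 in 8 (9.41%), against 4.08%.

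**Figure D5:**
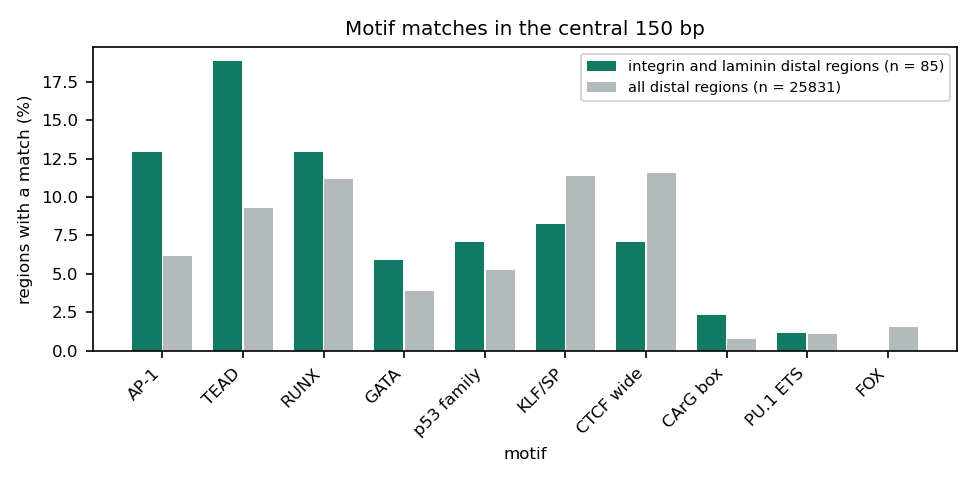
Share of distal regions with a motif match in their central 150 bp, in percent, for the 85 regions of integrin and laminin genes (left bars) and all 25831 distal regions (right bars). TEAD and AP-1 are at 18.8% and 12.9% in the members and at 9.26% and 6.14% in all distal regions.

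The strict CTCF motif was in 0 of 85 member regions and 0.921% of all, and a wider CTCF consensus, added after a match was seen in a printed window, was in 6 (7.06%), against 11.6%. Each of the 6 lay under a footprint in both replicates, as did 2892 of all 2990 matching distal regions; the deposited footprints were called at 0.01. They were assigned to Itga6, Itgb5, Lama1, Lama2, Lama3 and Lama4, with log2 height ratios (replicate 2 over replicate 1) from -0.93 at Lama1 to 0.61 at Lama3. AP-1 matches lay under a footprint of either replicate in 4 member regions (4.71%), against 1.70% of all distal regions, and of both in 0, against 0.577%. TEAD matches did so in 6 (7.06%), against 2.64%, for either replicate and in 2 (2.35%), against 1.06%, for both. At the 31 open promoter regions of members, KLF/SP was in 18 (58.1%), against 53.2% of all promoter regions.

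Of the 50 genes listed as partners of these chains, 39 (78%) were open in both replicates, against 62.3% of all protein-coding genes, with the adaptor and ligand lists at 62.5% each. Of the genes listed as basement membrane partners of laminin, 15 of 16 had a promoter peak in both replicates. They were led by Hspg2 (perlecan, 7.13 and 4.90), Nid2 (2.65 and 2.36) and Agrn (2.87 and 2.04), and Nid1 had a peak in replicate 1 alone (0.424). Col4a1 and Col4a2 had the same heights (1.49 and 1.07), as did Col4a3 and Col4a4 (0.526 and 0.588), so the 15 genes need not hold separate peaks. The hemidesmosome genes Cd151 (3.11 and 1.97), Plec (2.55 and 1.77) and Dst (1.27 and 1.19) were open, and Col17a1 had 0.254 in replicate 2 alone. All 6 other laminin receptors were open, led by Dag1 (dystroglycan, 8.08 and 5.98), Bcam (2.91 and 2.28) and Sgcb (1.97 and 1.28). Of the integrin adaptors and kinases 10 of 16 were open in both, led by Vcl (6.27 and 5.71), Lims1 (6.61 and 3.92) and Itgb1bp1 (6.30 and 4.23). Fermt3, the kindlin of blood cells, Parvg, and Tln2 had no peak in either, and Fermt1, Lims2 and Parvb had one in replicate 1 alone. Of other integrin ligands, Fn1 (4.24 and 3.82), Icam1 (1.5 and 1.20) and Madcam1 (1.42 and 1.11) led 5 open genes of 8, and Icam2, Spp1 and Vtn had no peak.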

How the data were processed

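DNase-seq of 2 bladder samples forming 1 group was used. Per the file headers and labels, positions refer to mm10. The peak height is a signal that the authors deposited, and its scale is not given. The authors' rate lists hold, as a deposited p-value, false discovery rates up to 0.05, and every footprint carries 0.01. Aligner, peak caller and read filters: not given in the sources used here.

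Python 3.11.15, numpy 2.4.6, pandas 2.3.3, scipy 1.17.1, matplotlib 3.10.9 and bedtools 2.31.1 were used. Peaks of the longer list of each replicate were set against GENCODE M21 protein-coding genes (mitochondrial genes left out). Peaks overlapping by at least 1 bp were merged, and regions with a peak in both replicates were kept. All heights (100%) fell on whole numbers of steps within 0.05 steps. The promoter calls, merging and nearest-gene assignment were tested on simulated peaks. Sequences came from the RefSeq copy of GRCm38.

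The members and lists were chosen with earlier results of these data known. The values of 1 member are not reported here, though it is counted in the totals. The other members are named, with distal regions for the 6 members with most and the 12 tallest, and pathway genes as the 3 tallest per list and all without a peak. No test between groups was possible.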

Additional observations from a re-analysis of the deposited data

How the results depend on the processing

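No paired analysis was possible because the samples form 1 group with no contrast. Both replicates were open at 26 members, and under the alternatives the count was 22 to 29. For epithelial chains it was 8 of 9. It fell to 5 with the shorter lists, against 55% of all genes, and to 6 with the first TSS alone, against 56.5%. For leukocyte chains it was 0, with 0 to 2 in a single replicate and 1 when Itga4 was added; for muscle chains it was 4, and 7 of 9 with broader groups. The median height of open members was 1.16, and 1.80 with all promoter peaks of a gene summed. Distal regions numbered 85 for all members (44 with the shorter lists, 52 with peaks at or above the median height, 184 to 237 in single replicates), 33 for epithelial chains (18, 15 and 70 to 73), 9 for muscle chains (3, 5 and 15 to 16) and 4 for leukocyte chains (2 at or above the median height and 19 to 20). All protein-coding genes had 0.653 per gene with the shorter lists, 0.773 at or above the median height, 2.33 in replicate 1 and 3.09 in replicate 2. Epithelial chains were above these values in each setting, with Lama3 and Itgb6 holding 9 and 8 of their 33 shared regions. Muscle chains were below with the shorter lists (0.5) and in replicate 2 (2.5), and above in replicate 1 (2.67). Leukocyte chains were below with the shorter lists (0.429) and in replicate 2 (2.86), and above in replicate 1 (2.71). In the single replicates, all 11 regions at Itgad in each replicate were under 0.3. The same held for every region at Itgax, 7 of them in replicate 2, and for none at Itgae, Itgal, Itgb2 and Itgb7. The cause of these shifts was not tested. Read depth is unknown here, and 1 group of 2 replicates limits every statement on differences.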
